A study of Rattus norvegicus with 99 samples.

Results

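The interventricular septum (Spt) of older sham-operated rats was compared with that of young sham-operated rats, using the 12 septum libraries of shams among the 99 libraries of the series. Members were chosen by the labels alone, as the septum samples of the older shams (n = 5) and of the 11-week shams (n = 7). The series covers 33 male rats of an F1 cross (female Wistar Kyoto by male Lewis), which were banded at the pulmonary artery or the aorta or only operated on. From each heart the left ventricle (LV), Spt and right ventricle (RV) were sequenced separately as polyadenylated RNA. All 12 animals used here were shams without a band. The young group, Sham-H, was 11 weeks old and 7 weeks past surgery. The older animals were the shams of the right heart failure arm, Sham-RF, at 27 weeks of age and 21 weeks past surgery (n = 2), and those of the left heart failure arm, Sham-LF, at 30 weeks of age and 24 weeks past surgery (n = 3). By these labels surgery was at 4 weeks in the young and at 6 weeks in the older animals, and the treatment notes give another age. The study itself states banding at 7 weeks of age, with age-matched shams. Whether the groups differed in age at surgery is therefore not settled. Age and time since surgery cannot be told apart, nor can age at surgery if it differed.

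The septum is the muscular wall shared by both ventricles. Between young adulthood and full maturity the rat heart slows its growth, cardiac fibroblasts make less new fibrillar collagen, and cardiomyocytes are joined at intercalated discs by desmosomes and by gap junctions built of connexins. Fibrillar collagens are secreted as procollagens, trimmed by ADAMTS proteases and assembled into cross-linked fibers, and matrix metalloproteinases cut them again.

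The 12 libraries held 12057180 to 22134595 gene counts, and values are given below as CPM, counts per 1000000 counts of the library, corrected for library composition. Cardiomyocyte marker genes (11 of 11 in the table) summed to 94617 to 127140 CPM in the young and 99397 to 120300 CPM in the older libraries. Sham-H replicate 5 stood apart from the other 11 libraries. Its scaling factor was 0.789 against 0.947 to 1.02 in the others, and it lay at 70.0 on the first principal component where the others lay between -28.8 and 16.3. In this library the median log2 deviation from the other shams was -0.39 over the 25% of genes with the longest transcripts and 0.45 over the 25% with the shortest. The atrial light chain Myl7 was at 232 CPM in Sham-H replicate 2, 240.0 CPM in Sham-H replicate 5 and 255 CPM in Sham-LF replicate 1, against 1.15 to 15.6 CPM in the other 9 libraries. The count over all genes, and each list count that changed, is therefore also given without Sham-H replicate 5. By the library numbers in the labels, Sham-H replicates 1 and 5 belonged to an earlier run of numbers, and the 5 other young and all 5 older libraries to a later one.

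**Figure D1:**
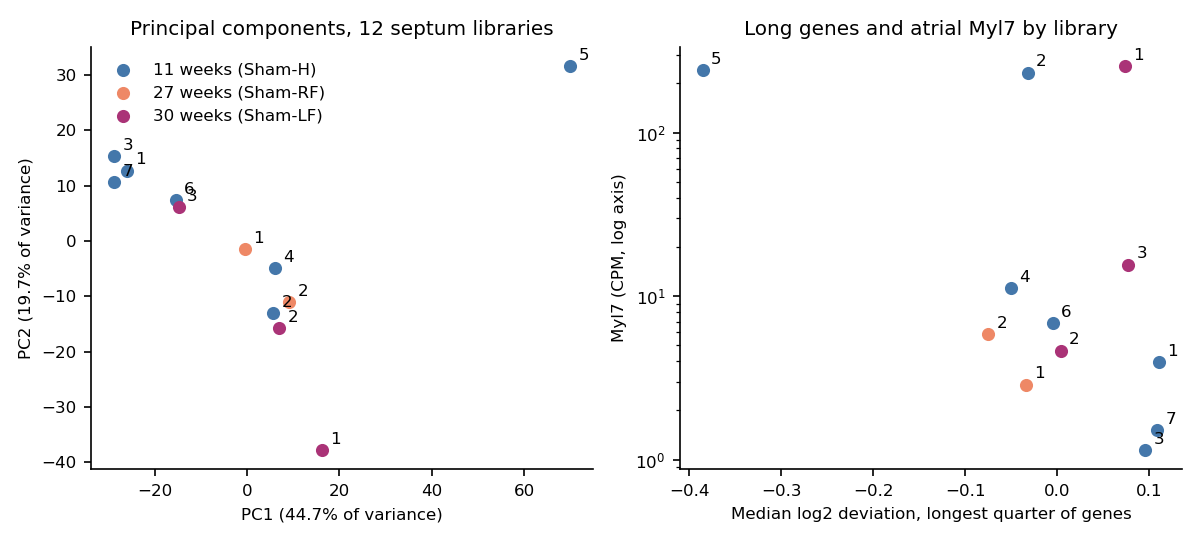
Left, first and second principal component scores of the 12 septum libraries (log2 CPM), colored by age and numbered by replicate. Right, median log2 deviation of the longest 25% of genes from the other shams (x axis) against Myl7 in CPM (y axis, log scale). Sham-H replicate 5 lies alone at 70.0 on the first component, and 3 libraries have Myl7 above 200 CPM.

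In the septum, 137 of 11624 tested genes differed between older and young shams at an adjusted p under 0.05 (edgeR quasi-likelihood test, Benjamini-Hochberg), which is 1.18% of the genes tested. Of these, 96 were higher (0.826%) and 41 lower (0.353%) in the older animals. These shares are the background for the list counts below, and 1 call in a list is not read as a result about that list. The transcripts of the genes called higher were 1.45 times as long at the median as those of all tested genes, and of the genes called lower 1.06 times. The differences were small, with a median absolute log2 fold change of 0.55, and 19 of the 137 reached 1. In 42 of the 137 the 5 older libraries did not overlap with the 7 young ones, where 0.972% of all tested genes had no overlap. Without Sham-H replicate 5 the test called 356 genes higher (3.06%) and 359 lower (3.09%), 6.15% in all, and all 137 genes were among them. These larger shares are the background for the list counts given without that library. The share of higher genes among the calls thus changed without that library, and the genes called higher then had a median length of 0.915 times that of all tested genes. The part of transcript length or RNA quality in the 96 higher calls was not tested beyond this. The direction of each of the 137 genes was kept when any 1 of the 12 libraries was left out. The genes had been called from these same libraries, so this is no separate support. The number of calls was fragile. It was 4 without Sham-LF replicate 1, 3 without Sham-LF replicate 2, 5 without Sham-H replicate 1, 6 without Sham-H replicate 6, 26 without Sham-H replicate 3, 31 without Sham-H replicate 7 and 38 without Sham-RF replicate 2. It rose to 239 without Sham-H replicate 2 and to 754 without Sham-LF replicate 3. Only Col3a1 and Olr1085 were called in all 12 of these fits, and Ass1, Gja1 and Slc52a3 in 11. All these fits took their spread from the banded animals too. With the 12 sham libraries alone 1 gene was called, and 0 with the older animals as 1 group.

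Col3a1, Col1a1, Col5a2 and Adamts2 of the fibrillar collagen matrix were lower in the older septum. Of 46 tested genes for collagens, their cross-linking and their assembly, 4 fell, none rose (0 called higher), and 32 had a negative log2 fold change; the list median was -0.18 against -0.03 for all tested genes. Col3a1 encodes the chain of type III collagen, the fine fibers of the cardiac interstitium. It ranged from 715 to 1192 CPM in the young libraries (median 987). The Sham-RF libraries had 549.9 and 589 CPM, and the Sham-LF libraries 465, 366 and 448 CPM. All 5 older libraries lay below all 7 young ones, and the log2 fold change was -1.04 ± 0.14 (SE), with an edgeR adjusted p of 0.00033.

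Col1a1, a chain of type I collagen, followed the same course at a lower level. It ranged from 149.9 to 334 CPM in the young (median 248), and was at 163 and 173 CPM in Sham-RF and at 136, 90.1 and 127 CPM in Sham-LF. The groups overlapped only through Sham-H replicate 5, the lowest young library, and the log2 fold change was -0.89 ± 0.17 (edgeR adjusted p = 0.021). Col5a2, whose product nucleates collagen fibers, was at 78.8 to 122 CPM in the young (median 108), at 73.0 and 78.9 CPM in Sham-RF and at 87.9, 75.3 and 64.0 CPM in Sham-LF. Its log2 fold change was -0.46 ± 0.11 (edgeR adjusted p = 0.040). Adamts2, the protease that removes the amino propeptide of procollagens, fell by 0.38 ± 0.10 on the log2 scale (edgeR adjusted p = 0.047).

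Sham-H replicate 5 had the lowest young value for all of these genes, for Mmp2 and for Igfbp5. Without it 10 of the 46 matrix genes were lower and 0 higher, the additional ones being Col5a1 (log2 fold change -0.63, adjusted p = 0.0020), Col6a2 (-0.46, 0.0073), Col14a1 (-0.52, 0.029), Col15a1 (-0.79, 0.00023), Fbn1 (-0.71, 0.033) and Loxl2 (-0.56, 0.024). In the basement membrane list, which holds the sheet-forming collagens and laminins, 0 of 10 genes were called with all libraries. Without that library Col4a1, Col4a4 and Lamc1 were lower and Lama5 was higher.

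The gelatinase Mmp2 was the 1 gene called among 19 matrix proteases and their inhibitors. It was at 147 to 232 CPM in the young (median 197), at 153 and 149.9 CPM in Sham-RF and at 160.4, 134 and 140.1 CPM in Sham-LF, with a log2 fold change of -0.39 ± 0.09 (edgeR adjusted p = 0.036). Mmp14 and Mmp19 were lower too without Sham-H replicate 5. Igfbp5, a secreted binding protein of insulin-like growth factors, ranged from 23.8 to 72.1 CPM in the young (median 60.7) and from 29.6 to 40.5 CPM in the older libraries. It fell by 0.68 ± 0.18 on the log2 scale (edgeR adjusted p = 0.047) and was the 1 gene called of 14 in that axis.

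**Figure D2:**
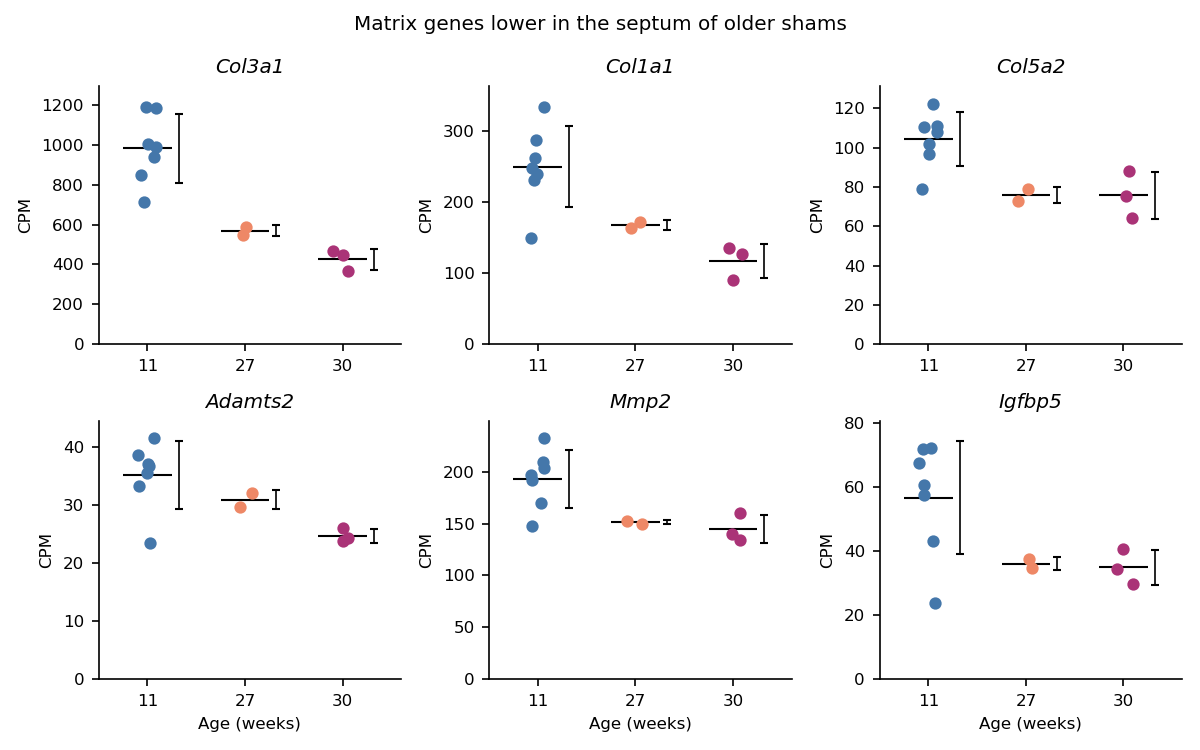
CPM of 6 matrix and growth factor genes in each septum library (points) by age, with the group mean (line) and SD (bar); 7, 2 and 3 animals. All older libraries lie below all young ones for Col3a1, and 1 young library at the bottom of its group, Sham-H replicate 5, overlaps with them for Col1a1.

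The fibroblast marker list, which shares members with the matrix list, was lower too. None of its 10 tested genes had a positive log2 fold change, and the median was -0.29. Col3a1 and Col1a1 are members and were the 2 called. Dcn, Lum and Pcolce are also in both lists, so the 2 lists are not separate observations. Its summed level was 6232 to 8013 CPM in the young and 4666 to 6335 CPM in the older libraries. Outside the collagens, Dpt (-0.43 ± 0.13, edgeR adjusted p = 0.086), Tcf21 (-0.37 ± 0.11, 0.097) and Pdgfra (-0.23 ± 0.09, 0.17) did not pass, and Pdgfra passed without Sham-H replicate 5 (adjusted p = 0.047). In LV and RV of the same animals the median of this list was 0.05 and -0.003. In bulk tissue, fewer cells of a type and less RNA per cell cannot be told apart. Col1a2 and Mfap4 had 3 counts or fewer in all 12 libraries and are not interpreted.

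The connexin genes Gja1 and Gja5 were higher in the older septum. In the conduction system list 2 of 23 tested genes rose and 0 fell, although the list median was -0.09. Gja1 encodes connexin 43, the main gap junction protein between working cardiomyocytes. It ranged from 252 to 349 CPM in the young (median 284), and was at 425 and 438 CPM in Sham-RF and at 459.7, 535 and 398 CPM in Sham-LF. The groups did not overlap, and the log2 fold change was 0.61 ± 0.11 (edgeR adjusted p = 0.0098). Gja5 encodes connexin 40 of the fast conducting fibers, the atria and arterial endothelium. It was at 18.1 to 26.2 CPM in the young (median 20.4), at 25.4 and 28.8 CPM in Sham-RF and at 47.0, 32.6 and 24.2 CPM in Sham-LF, with overlap, and its log2 fold change was 0.57 ± 0.13 (edgeR adjusted p = 0.036). The highest Gja5 value came from Sham-LF replicate 1, a library with Myl7 at 255 CPM, and without the 3 libraries with high Myl7 Gja5 had an adjusted p of 0.060 and Gja1 of 0.011. Pkp2, which encodes the desmosomal protein plakophilin of the intercalated disc, was also higher (0.38 ± 0.08, edgeR adjusted p = 0.024) and was picked after its value was seen.

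The 120 bases before the annotated start of these connexin genes and of Cyr61 (Ccn1 in RefSeq) are shown because these genes rose and a start site sequence was given for them. They are RefSeq sequences of the GRCr8 build, not of the build used for counting, and capitals mark matches to TATAAA or to the AP-1 motif TGANTCA on either strand.
Gja1, chr20:36302444-36302563, plus strand: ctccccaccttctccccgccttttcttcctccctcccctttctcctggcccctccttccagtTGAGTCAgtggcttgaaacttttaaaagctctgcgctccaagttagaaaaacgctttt
Gja5, chr2:187291107-187291226, plus strand: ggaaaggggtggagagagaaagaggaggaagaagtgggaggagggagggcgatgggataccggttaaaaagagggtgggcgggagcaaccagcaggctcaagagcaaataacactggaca
Ccn1, chr2:237225690-237225809, minus strand: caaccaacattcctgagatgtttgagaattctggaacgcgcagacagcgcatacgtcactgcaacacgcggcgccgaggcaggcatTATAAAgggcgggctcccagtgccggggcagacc
In the 250 bases before the start, TGANTCA occurred in 6.34% and TATAAA in 12.9% of 33469 promoters. Gja5 also had a TATAAA match starting 178 bases before the start, outside the stretch shown. A match describes the letters only.

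Among 21 calcium cycling genes 1 rose. Camk2b, a subunit of the calcium and calmodulin-dependent kinase, was at 3.10 to 6.07 CPM in the young (median 3.84), at 7.22 and 5.08 CPM in Sham-RF and at 7.36, 7.36 and 9.72 CPM in Sham-LF. Its log2 fold change was 0.85 ± 0.18 (edgeR adjusted p = 0.033). Of the imprinted growth genes, listed because they are expressed from 1 parental allele in at least some tissues, 3 of 15 rose and 0 fell. The list as a whole did not rise, with a median of -0.01, 7 positive and 8 negative log2 fold changes. The counts do not tell the alleles apart, so imprinting in the septum was not tested. Without Sham-H replicate 5, 4 were higher, with Plagl1 added, and 1, Mest, was lower. Gnas, the stimulatory G protein subunit that couples receptors to adenylyl cyclase, was at 969.6 to 1285 CPM in the young (median 1102) and at 1336, 1503, 1591, 1564 and 1229.5 CPM in the older libraries (0.37 ± 0.07, edgeR adjusted p = 0.021). Peg3 rose by 0.35 ± 0.08 and Impact by 0.56 ± 0.13 on the log2 scale (edgeR adjusted p = 0.033 and 0.037). Impact was at 14.9 CPM in Sham-H replicate 5 and at 28.1 to 34.5 CPM in the other young libraries, against 37.3 to 45.9 CPM in the older ones.

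Immediate early genes are induced within minutes of a stimulus such as tissue handling. Of 26 tested, 1 rose and 23 had a positive log2 fold change, with a median of 0.23. Cyr61, a secreted matricellular protein, ranged from 21.9 to 66.1 CPM in the young (median 35.7). It was at 149.7 and 100.3 CPM in Sham-RF and at 100.2, 62.4 and 53.7 CPM in Sham-LF, so the Sham-RF values were above every young library and the Sham-LF values in part overlapped. The log2 fold change was 1.26 ± 0.30 (edgeR adjusted p = 0.038). Ier2 and Klf4 were higher as well without Sham-H replicate 5.

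**Figure D3:**
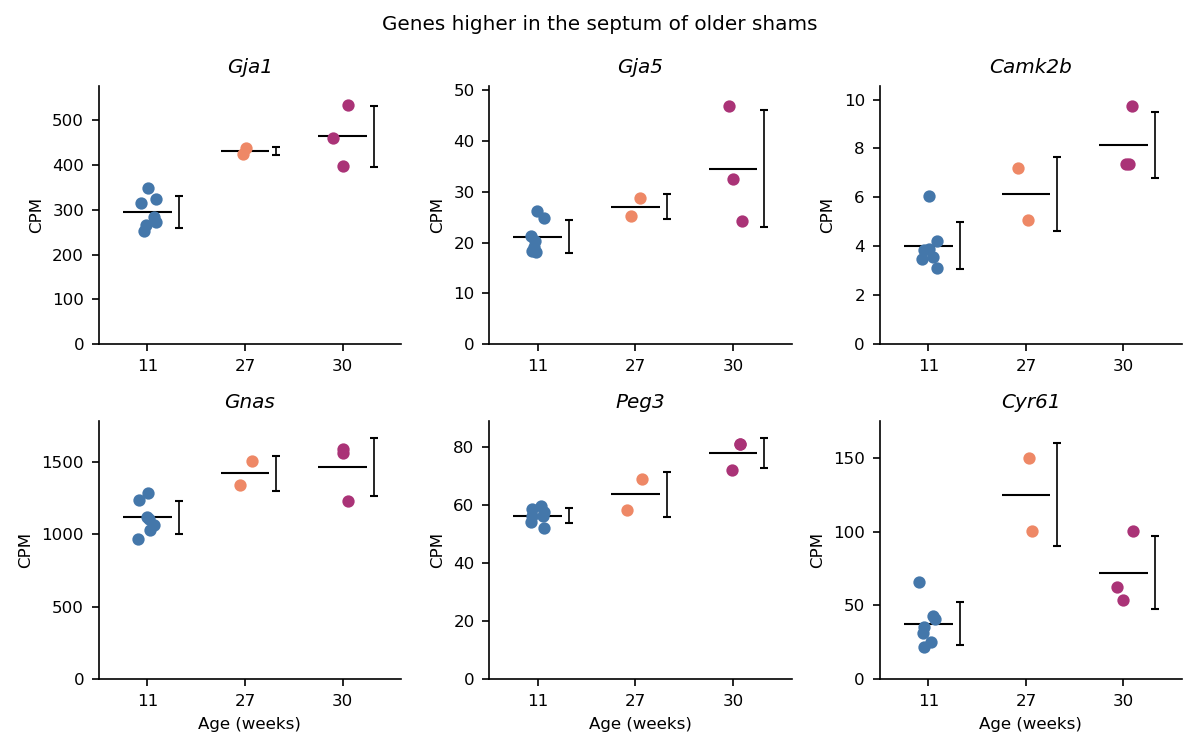
CPM of 6 genes that rose, in each septum library (points) by age, with the group mean (line) and SD (bar); 7, 2 and 3 animals. The older libraries lie above all young ones for Gja1, and the groups overlap for Gja5, Camk2b, Gnas, Peg3 and Cyr61.

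Of 33 interferon-stimulated genes 1 was called, 3 had a positive log2 fold change, and the median was -0.24. Isg15, a ubiquitin-like modifier, was at 24.8 to 53.1 CPM in the young (median 35.1), at 20.7 and 24.3 CPM in Sham-RF and at 29.1, 23.2 and 18.0 CPM in Sham-LF (log2 fold change -0.67 ± 0.17, edgeR adjusted p = 0.046). Without Sham-H replicate 5, which had the highest Isg15 value, 5 genes of the list were lower. Eif2ak2, the double-stranded RNA-dependent kinase PKR, which was outside this list, fell by 0.48 ± 0.10 on the log2 scale (edgeR adjusted p = 0.033) with no overlap. The macrophage list had 1 of 15 genes positive, a median of -0.20 and 0 calls, and its summed level was 493 to 814 CPM in the young and 457 to 656 CPM in the older libraries. In the same animals the interferon list had a median of -0.20 in LV and -0.36 in RV. The macrophage list had a median of 0.23 in both. Whether a change in macrophages had a part in the interferon genes was not tested.

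Metabolic genes differed singly. With 1.18% of all tested genes called, 1 call in a list of this size is no result about the list. Pfkfb1, the kinase and phosphatase that sets fructose 2,6-bisphosphate, was at 0.855 to 1.53 CPM in the young and at 1.53, 3.07, 2.93, 4.91 and 2.97 CPM in the older libraries (1.29 ± 0.27, edgeR adjusted p = 0.033) and was the 1 call among 33 glycolysis genes. Ppargc1a, the coactivator of mitochondrial biogenesis, was at 16.5 to 32.4 CPM in the young (median 24.7) and at 16.2, 15.3, 9.78, 11.7 and 20.4 CPM in the older libraries. It fell by 0.74 ± 0.19 on the log2 scale (edgeR adjusted p = 0.047), the 1 call among 42 fatty acid genes. Of 72 respiratory chain subunits 0 were called, with a median of 0.01; without Sham-H replicate 5 the median was 0.20 and 5 were higher, Cox6a2 among them. The circadian output factor Tef fell by 0.42 ± 0.11 (edgeR adjusted p = 0.047), 1 of 16 clock genes, and the time of day of tissue collection was not given in the sources used here.

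Of 24 stress genes 1 was called, and of 27 chaperone genes 1, where 1.18% of all tested genes were called. Ddit4, an inhibitor of mTOR signaling, was at 141 to 219.7 CPM in the young (median 171) and at 102 to 114 CPM in the older libraries, without overlap (-0.69 ± 0.16, edgeR adjusted p = 0.033). Hspb6, a small heat shock protein of muscle, was at 1996 to 2583 CPM in the young (median 2384) and at 2830.5 to 3061 CPM in the older libraries, also without overlap (0.33 ± 0.09, edgeR adjusted p = 0.049). Hspb1, Cryab and the stress gene Gadd45g were higher too without Sham-H replicate 5, where 3.06% of all tested genes were called higher.

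Of 48 cell cycle genes 0 were called. Their median was -0.18, and 5 of 48 had a positive log2 fold change. The lowest p belonged to the replication licensing factor Mcm5, at 6.91 to 11.6 CPM in the young and 6.81 to 8.23 CPM in the older libraries (-0.42 ± 0.11, edgeR adjusted p = 0.065). Without Sham-H replicate 5, 3 of the 48 were lower, Mcm5, Rrm2 and Tyms, where 3.09% of all tested genes were called lower.

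**Figure D4:**
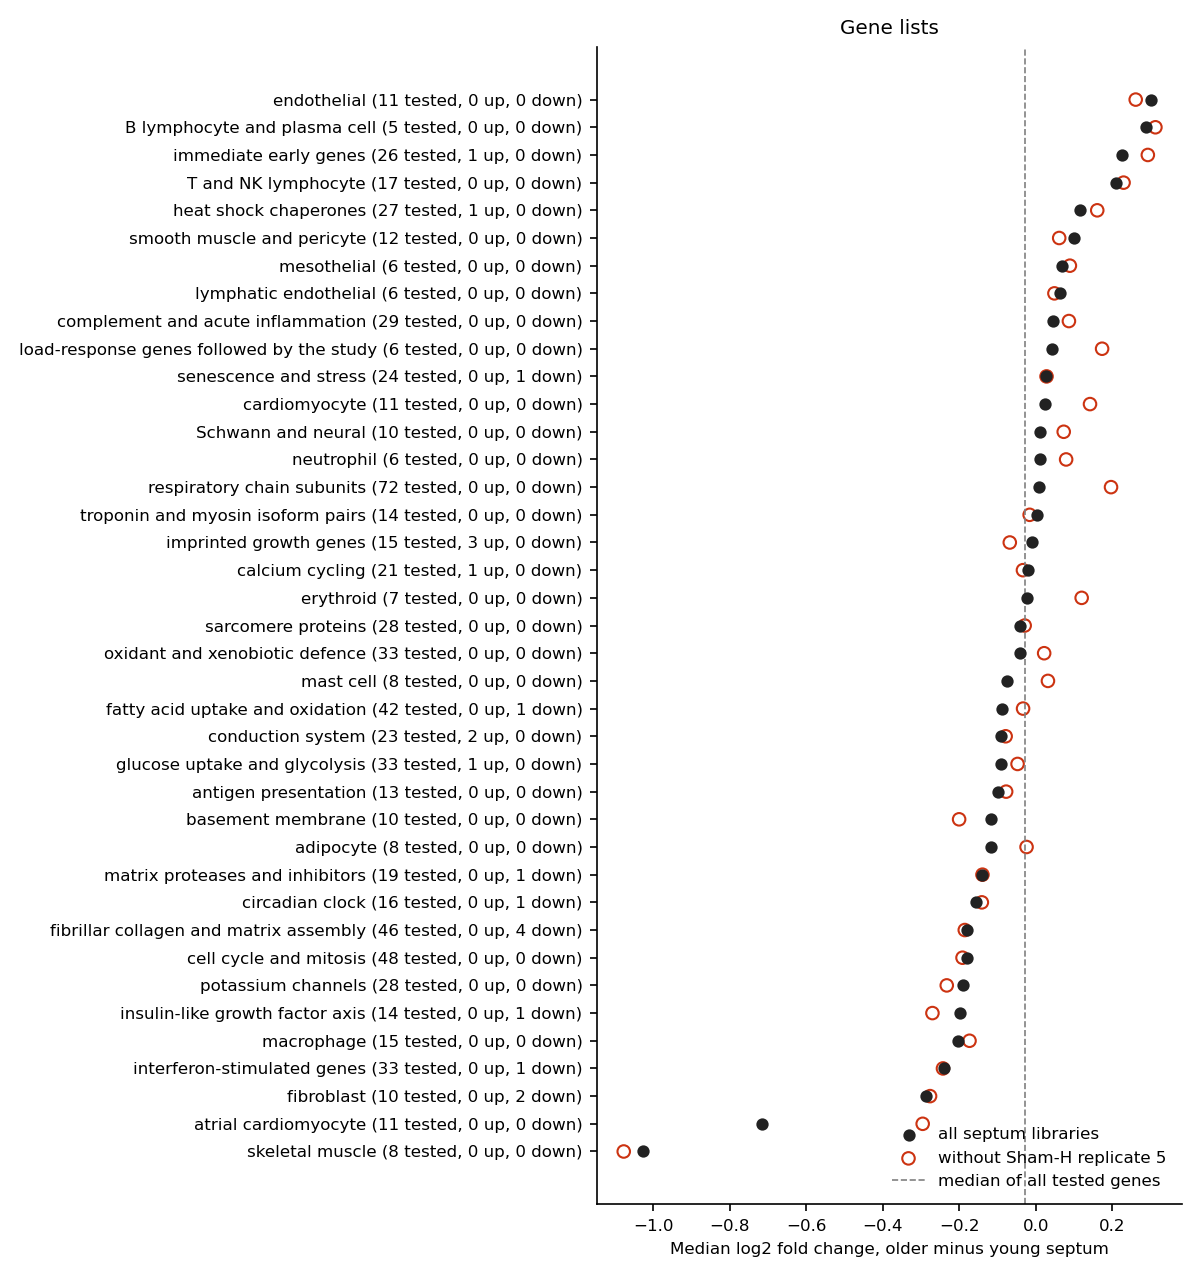
Median log2 fold change (x axis, older minus young septum) of each gene list with all libraries (filled) and without Sham-H replicate 5 (open); labels give genes tested and called. The dashed line is the median of all tested genes, -0.03. Among the filled points endothelial genes lie highest at 0.30 and skeletal muscle genes lowest at -1.03.

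With all libraries no contractile or load-response gene passed. Of 28 sarcomere genes, 14 troponin and myosin isoform genes, 11 cardiomyocyte markers and 28 potassium channel genes, 0 were called. Without Sham-H replicate 5, the Z-disc genes Ldb3 (0.23, adjusted p = 0.044) and Csrp3 (0.48, 0.0072) were higher and the channel subunit Kcne4 (-1.03, 0.045) was lower. Ldb3 and Csrp3 were also higher without the 3 libraries with high Myl7. The natriuretic peptides Nppa and Nppb had log2 fold changes of -0.04 ± 0.55 and -0.17 ± 0.24, Acta1 of 0.02 ± 0.26 and Myh7 of -0.01 ± 0.21 (edgeR adjusted p = 0.98, 0.74, 0.97 and 0.99). Penk (0.06 ± 0.23), Tceal7 (0.71 ± 0.43) and Col8a1 (-0.31 ± 0.27) did not pass either. Ankrd23, a titin-linked ankyrin repeat protein, was at 35.0 to 81.9 CPM in the young and at 134, 95.7, 128, 118 and 165 CPM in the older libraries. These groups did not overlap, yet the test, whose spread was shared with the banded animals, gave 0.96 ± 0.41 and an adjusted p of 0.20. With the 12 sham libraries alone Ankrd23 was at 0.96 ± 0.18 (edgeR adjusted p = 0.12). In that fit the SE was smaller for Nppa (0.31), Nppb (0.13), Acta1 (0.12), Tceal7 (0.335) and Col8a1 (0.12). It was larger for Penk (0.29) and about the same for Myh7 (0.21). None of these genes passed there either.

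The endothelial markers had 11 of 11 log2 fold changes above 0, a median of 0.30 and 0 calls, with Tek (0.33 ± 0.09, edgeR adjusted p = 0.062) and Vwf (0.38 ± 0.11, 0.078) closest. Without Sham-H replicate 5, 2 were higher, Tek (0.28, adjusted p = 0.044) and Pecam1 (0.34, 0.035). Their summed level was 1514 to 2114 CPM in the young and 1735 to 2780 CPM in the older libraries, with the highest in Sham-LF replicate 1. The skeletal muscle list had a median of -1.03, and its Atp2a1 was at 24.3 CPM in Sham-H replicate 2 and at 0.274 to 1.18 CPM in the other 11 libraries. Without the 3 libraries with high Myl7 that median was 0.50, and the atrial list's median went from -0.71 to 0.03. Further lists had 0 calls with all libraries and these calls without Sham-H replicate 5, where 3.06% of all tested genes were called higher and 3.09% lower. Acta2 and Tagln were higher and Rgs5 lower among smooth muscle and pericyte genes, Mzb1 and Cyp2j4 were higher, and Cd4, C1s and RT1-DOb were lower. The skeletal muscle genes Mylpf and Atp2a1 were called lower through Sham-H replicate 2. Like Atp2a1, Mylpf was high there only, at 20.2 CPM against 0.0876 to 0.794 CPM in the other 11 libraries. Without the 3 libraries with high Myl7, 0 skeletal muscle genes were called.

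The 10 largest rises without overlap included Syt8, Dusp15 and Slc52a3. Syt8 was at 0.794 to 1.71 CPM in the young and 2.04 to 3.00 CPM in the older libraries (1.07 ± 0.22, edgeR adjusted p = 0.032). The phosphatase Dusp15 was at 7.73 to 16.2 CPM against 16.5 to 32.7 CPM (1.04 ± 0.23, 0.033), and the riboflavin transporter Slc52a3 at 4.77 to 6.72 CPM against 7.80 to 14.4 CPM (0.85 ± 0.15, 0.012). Il22ra2, Rasl11a, Dqx1, Mroh7, Sgsm1, Kifc2 and Kctd4 completed the largest rises, with log2 fold changes of 0.88 to 1.54. Among the falls, Spin1 was at 3.57 to 4.39 CPM against 1.75 to 2.87 CPM (-0.73 ± 0.15, 0.033) and C1qtnf6 at 10.5 to 14.4 CPM against 7.55 to 10.3 CPM (-0.48 ± 0.11, 0.037). Eef2k, Sdf4, Gtf2h1, Arfgap1 and Gdi2 fell by 0.23 to 0.26 on the log2 scale.

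Each older group was also set against the same 7 young shams. At 27 weeks 0 of 11624 genes passed (edgeR, 0.0%), with 671 at an unadjusted p under 0.05, and at 30 weeks 201 passed (1.73%), 169 higher (1.45%) and 32 lower (0.275%); without Sham-H replicate 5 the 30-week count was 566. All 137 genes had the same direction at both ages, both of which entered the comparison that called them. Col3a1 was at -0.79 ± 0.20 at 27 weeks and -1.20 ± 0.18 at 30 weeks, and Gja1 at 0.55 ± 0.14 and 0.66 ± 0.12. Cyr61 had the larger value at 27 weeks, 1.73 ± 0.38 against 0.94 ± 0.35. The direct test of 30 against 27 weeks called 0 genes with edgeR and 0 with DESeq2, and 450 had an unadjusted edgeR p under 0.05, so no difference between the older groups was detectable with 2 and 3 animals.

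The same animals' ventricles gave fewer calls, 2 of 11703 genes in LV (0.0171%) and 11 of 11734 in RV (0.0937%). Col3a1 was at -0.86 ± 0.18 in LV (edgeR adjusted p = 0.075) and -0.83 ± 0.16 in RV (0.021), and Col1a1 at -0.99 ± 0.20 (0.075) and -0.89 ± 0.17 (0.023). Gja1 was at 0.30 ± 0.13 in LV and 0.49 ± 0.13 in RV, and Gnas at 0.01 ± 0.09 and 0.18 ± 0.10. With the animal as a block, the age difference in Spt was not found to differ from that in LV or RV for any of 11453 genes (0 called by edgeR in both; 818 and 404 at an unadjusted p under 0.05), and DESeq2 called 3 genes against LV. The larger number of calls in the septum is thus not shown to be particular to it. The older LV and RV libraries came from an earlier run of library numbers than the older septum libraries, so that chamber and run cannot be fully told apart.

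**Figure D5:**
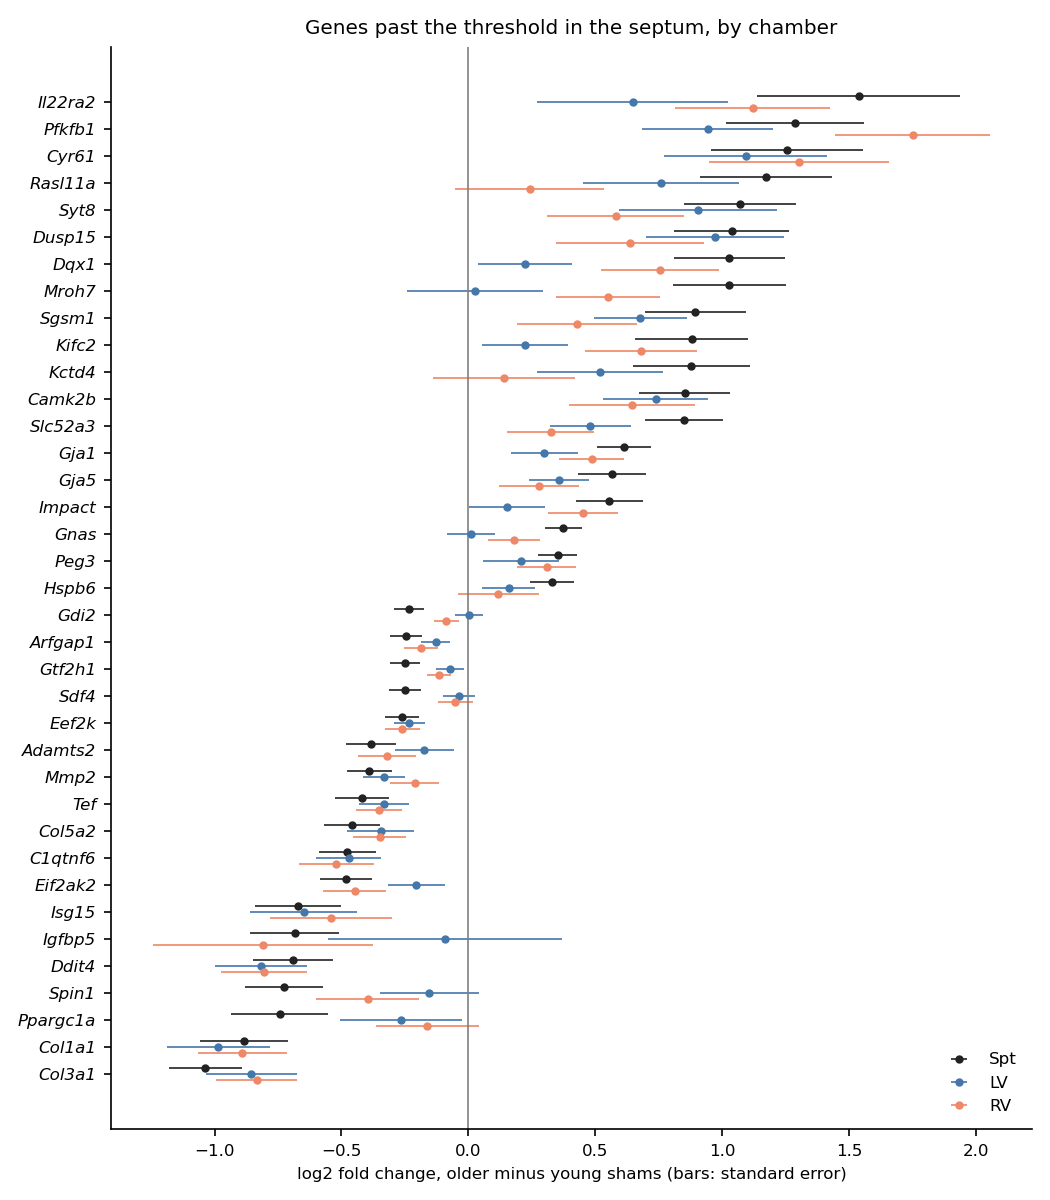
Log2 fold change (x axis, older minus young shams) with its standard error for the 37 named genes past the threshold in the septum, in Spt, LV and RV. Col3a1 and Col1a1 lie at -0.83 or below in all 3 chambers, and Gnas is at 0.37 in Spt and 0.01 in LV.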

How the data were processed

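Single-end reads of polyadenylated RNA were trimmed (Trim Galore), aligned to Rnor6.0 (STAR) and counted per gene by the authors with featureCounts; strand use in counting is not given in the sources used here. The deposited counts (17337 genes) entered all tests. The deposited normalized counts, a linear signal from DESeq2 size factors, and the deposited FPKM, counts per gene length, gave only relative gene lengths. Genes passing filterByExpr were tested with edgeR 4.0.16 (R 4.3.3) quasi-likelihood fits after TMM scaling, over all 33 septum libraries and 7 conditions, as the mean of the 5 older minus the 7 young shams (weights by animals). Chambers were compared in the 36 sham libraries with the animal as a block. DESeq2 1.42.0 was an alternative. The fits were tested on simulated data. P-values of the tests within a chamber measure the spread between animals of the same condition. In the main tests within a chamber this spread was pooled over all 7 conditions, banded animals included. With the animal as a block, the p-values measure how chamber differences within an animal vary between animals. There Sham-RF and Sham-LF were merged into 1 older group. Named genes were the 10 largest rises and falls that passed, had a mean of 1 CPM or more and did not overlap. The called members of each list (with no call, the member of lowest p) were named too. So were 10 genes fixed by name, all of them but Myh7 discussed by the study. Of each list, genes outside the table are not analysed here. The members and lists were chosen with earlier results of these data known.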

Additional observations from a re-analysis of the deposited data

Results flagged for a closer look

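In 13 of 136 groups of values (68 named genes, young and older libraries), 1 library lay outside the others by Dixon's test, where chance flags about 1 in 20. Sham-H replicate 5 accounted for 6: Sgsm1 at 0.953 CPM (others 2.06 to 2.86), Sdf4 at 222 CPM (165 to 179), Impact at 14.9 CPM (28.1 to 34.5), Cox6a2 at 4550.2 CPM (2192 to 2932), Mzb1 at 1.19 CPM (0.323 to 0.656) and Penk at 646 CPM (123 to 344). This is the library in which long transcripts were low. In Sham-H replicate 2 Atp2a1 was at 24.3 CPM (0.274 to 1.10 in the other young libraries). Sham-H replicate 3 had Camk2b at 6.07 CPM (3.10 to 4.22) and Sham-H replicate 6 had Reln at 8.26 CPM (2.19 to 4.77). Among the older libraries, Sham-LF replicate 1 had Kifc2 at 9.65 CPM (4.55 to 5.63) and Lipe at 134 CPM (88.1 to 95.5), and Sham-LF replicate 2 had Mcm5 at 8.23 CPM (6.81 to 7.17) and Mbp at 0.701 CPM (1.54 to 1.80). The causes were not tested.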

How the results depend on the processing

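The direction of the 37 named genes past the threshold held in 962 of 962 repeats over 26 alternatives, and the call in 463. These genes were chosen by passing in the same libraries that the alternatives reused, so their kept direction is no separate support. The count of 137 genes was 125 with RLE scaling, 132 with all 99 libraries, 153 in the later library run alone and 201 with the 30-week shams alone, but 312 with DESeq2, 69 with no filter, 23 with the library run as covariate, 12 with equal weights, 17 with the replicate block, 1 with the 12 shams alone (Col3a1), and 0 with older animals as 1 group or with the 27-week shams alone (10.5% and 5.77% of genes at an unadjusted p under 0.05, edgeR). Leaving out 1 library gave 3 to 754. Chosen after seeing the data, leaving out the 3 libraries with high Myl7 gave 362, and the shams alone without Sham-H replicate 5 gave 78. The 30-week count of 201 was 410 with DESeq2, 126 with no filter and 2 to 1279 with 1 library left out; the 27-week count of 0 was 0 to 3. The age difference of Spt against LV was 3 with DESeq2. The cause of these moves was not tested. Replicate numbers did not pair the animals (correlations of same-numbered deviations from -0.38 to 0.49), so the replicate block is no paired analysis. Values of 5 genes that did not pass changed sign. Nppa was 0.032 in the shams without Sham-H replicate 5, 0.25 with the 30-week shams alone, 0.17 in the later run, 0.14 with the run as covariate, 0.046 without the high Myl7 libraries and -0.25 to 0.12 with 1 library left out. Acta1 was -0.024 in the shams without Sham-H replicate 5, -0.013 with the 30-week shams alone, -0.18 with the replicate block and -0.017 to 0.094 with 1 library left out. Myh7 was 0.0092 with older animals as 1 group, 0.15 with the 30-week shams alone, 0.061 with the run as covariate and -0.11 to 0.095 with 1 library left out. Penk was -0.082 to 0.31 with 1 library left out, and Atp2a1 was 0.0045 with DESeq2 against -2.66 ± 0.83 with edgeR (adjusted p = 0.098), with 1 young library at 24.3 CPM.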
